A study of Mus musculus with 15 samples.

Results

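miR-22 was followed in mouse liver grafts as the entry mmu-miR-22 of the array, without the star that marks the opposite strand of the hairpin. It was 1 of 567 mouse miRNAs measured, and it was chosen by its signal on these arrays, as 1 of the brightest miRNAs of the grafts, so its brightness is given only as a description. The data were 15 single-colour Agilent miRNA arrays, each hybridised with Cy3-labelled total RNA from the liver graft of a male mouse, with 3 grafts in each of 5 groups. Allografts were B10.BR (H2-Kk) livers placed in B10.D2 (H2-Kd) recipients and were removed on day 5, 8, 14 or 100 after transplantation, and no immunosuppressant was given in this model, as the paper describes it. The comparison group was syngeneic grafts removed on day 5. The sample titles call these 3 arrays syngeneic, whereas their strain entry repeats the allogeneic pair, so the group was taken from the titles and its strain is uncertain. There was no syngeneic group on the later days and no untransplanted liver was analysed here, so the day after surgery and the allogeneic state cannot be told apart in the comparisons of days 8, 14 and 100 with the syngeneic grafts.

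A miRNA is a short RNA that is loaded into an Argonaute protein and guides it to messenger RNAs, mainly through pairing of its seed, and the messenger RNAs that it pairs with are translated less and degraded sooner. miR-22 is cut from a hairpin in the transcript of a long non-coding host gene and is abundant in liver, heart and skeletal muscle. In liver it has been studied mostly in hepatocytes, where it has been tied to lipid metabolism and to growth control.

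The mature miR-22 and the opposite strand are shown first, because the array measured each of them with its own probes. The capitals mark the seed, bases 2 to 8.
miR-22 (now mmu-miR-22-3p): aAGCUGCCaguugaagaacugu
miR-22* (now mmu-miR-22-5p): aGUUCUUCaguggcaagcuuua
Both sequences are from RefSeq (GRCm38.p6). On the plus strand of chromosome 11, miR-22 spans chr11:75463772-75463793 and miR-22* spans chr11:75463734-75463755. They are the 3′ and 5′ arms of a hairpin of 95 bases, Mir22, at chr11:75463716-75463810, in which miR-22* takes positions 19 to 40 and miR-22 takes positions 57 to 78. The hairpin lies inside the span of the lncRNA gene Mir22hg (chr11:75461539-75466690, 5152 bases). Of the 1679 mature mouse miRNAs in the RefSeq table, 0 others carry the seed of miR-22, so no family member with the same seed was there to compare.

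On every array, 11540 spots measured miRNAs, none of them saturated (0 spots), and between 60 and 115 of the 567 mouse miRNAs were detected per array. Replicate 1 of day 100 stood apart: its additive error, the software's estimate of noise at low signal, was 13.1 intensity units, where the remaining 14 arrays had 2.67 to 3.66, and it had the fewest miRNAs detected (60). The arrays came from 2 slides, each scanned once: slide 1 held syngeneic replicates 1 and 2 and all arrays of days 8 and 14, and slide 2 held syngeneic replicate 3 and all arrays of allograft day 5 and day 100.

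The signal of miR-22 far exceeded the background on all arrays. The array carries 2 probes for it, with 10 spots each, and all 20 spots were well above background on 15 of 15 arrays. By summed signal, miR-22 was the third or the fourth brightest of the 567 mouse miRNAs on every array, and it made up 2.86% (syngeneic replicate 2) to 7.72% (syngeneic replicate 1) of the summed miRNA signal. Probes differ in how strongly they bind, so this order describes brightness and does not rank abundance. The entries brighter than miR-22 were miR-21, a broadly expressed miRNA that rises in injury and inflammation, miR-122, the most abundant miRNA of hepatocytes, and, wherever miR-22 was the fourth, miR-720, an entry since regarded as a tRNA fragment.

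The 2 probes of miR-22 gave parallel readings. The brighter probe exceeded the dimmer one by 3.06-fold to 3.79-fold, with a median of 3.40-fold over the 15 arrays, and the coefficient of variation among the spots of a probe ran from 0.268% to 11.2% (median 5.11%). The dimmer probe averaged 910 ± 224 units in the syngeneic grafts and 1026 ± 144 units on day 14 (SD, n = 3 each). The brighter probe averaged 3166 ± 1089 and 3544 ± 570 units in the same groups. The plot of both probes shows them moving together from array to array, and the day 14 difference from the syngeneic grafts described next was called with either probe alone.

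**Figure D1:**
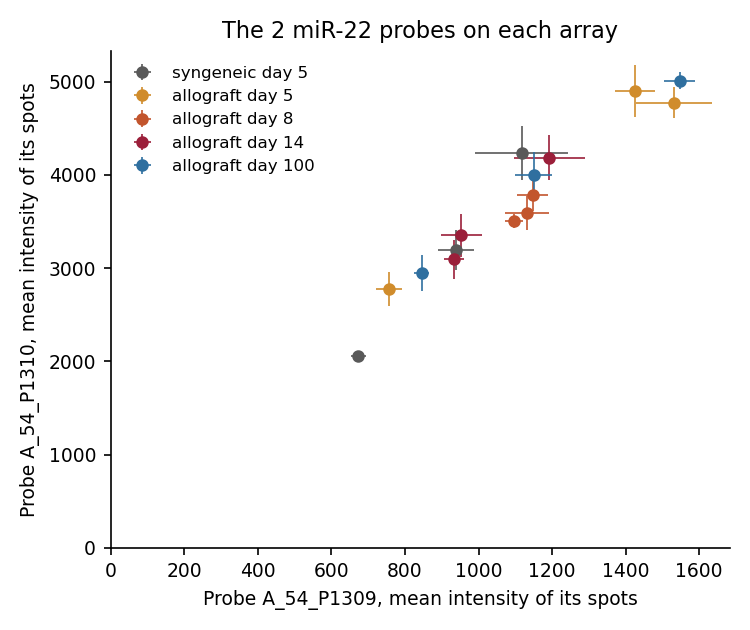
Signal of the 2 miR-22 probes on each of the 15 arrays in intensity units, as the mean over the spots of the probe with bars for their SD. The brighter probe lay 3.06-fold to 3.79-fold above the dimmer one on all 15 arrays.

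Before any scaling between arrays, the groups overlapped in miR-22 signal. The syngeneic grafts read 4138, 2734 and 5355 units for replicates 1 to 3, with a mean of 4076 ± 1312 (SD, n = 3). The allografts read 6306, 6322 and 3533 units on day 5 (mean 5387 ± 1605) and 4601, 4724 and 4931 units on day 8 (mean 4752 ± 167). On day 14 they read 4304, 4027 and 5378 units (mean 4570 ± 713) and on day 100 they read 6559, 3794 and 5147 units (mean 5166 ± 1383). Every allograft mean was thus above the syngeneic mean, but the syngeneic arrays spanned 2734 to 5355 units and at least 1 array of every allograft day fell inside that range.

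Arrays differed in total brightness, so each array was divided by the 75th percentile of its signals over the 52 miRNAs detected on all 15 arrays, and values are given on the log2 scale (scaled log2 signal). The percentile was 395 to 616 units in the syngeneic grafts and 718 to 1018 units on days 8 and 14, so the scaling lowered days 8 and 14 more than the syngeneic grafts. On day 5 it was 457 to 949 units and on day 100 it was 516 to 1002 units, and both ranges overlapped that of the syngeneic grafts. By group mean the scaling lowered these days too. The log2 difference of miR-22 from the syngeneic grafts went from 0.41 to -0.13 on day 5 and from 0.36 to -0.20 on day 100. On days 8 and 14 it went from 0.27 to -0.35 and from 0.21 to -0.57. After scaling, miR-22 was at 3.01, 2.79 and 3.12 in the syngeneic grafts, with a mean of 2.97 ± 0.17. It was at 2.83, 2.74 and 2.95 on day 5 (mean 2.84 ± 0.11) and at 2.68, 2.60 and 2.57 on day 8 (mean 2.62 ± 0.06). On day 14 it was at 2.39, 2.42 and 2.40 (mean 2.40 ± 0.02), and on day 100 at 2.71, 2.88 and 2.73 (mean 2.77 ± 0.09). All 3 arrays of day 8 and all 3 of day 14 lay below all 3 syngeneic arrays, whereas the arrays of day 5 and of day 100 overlapped with them.

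**Figure D2:**
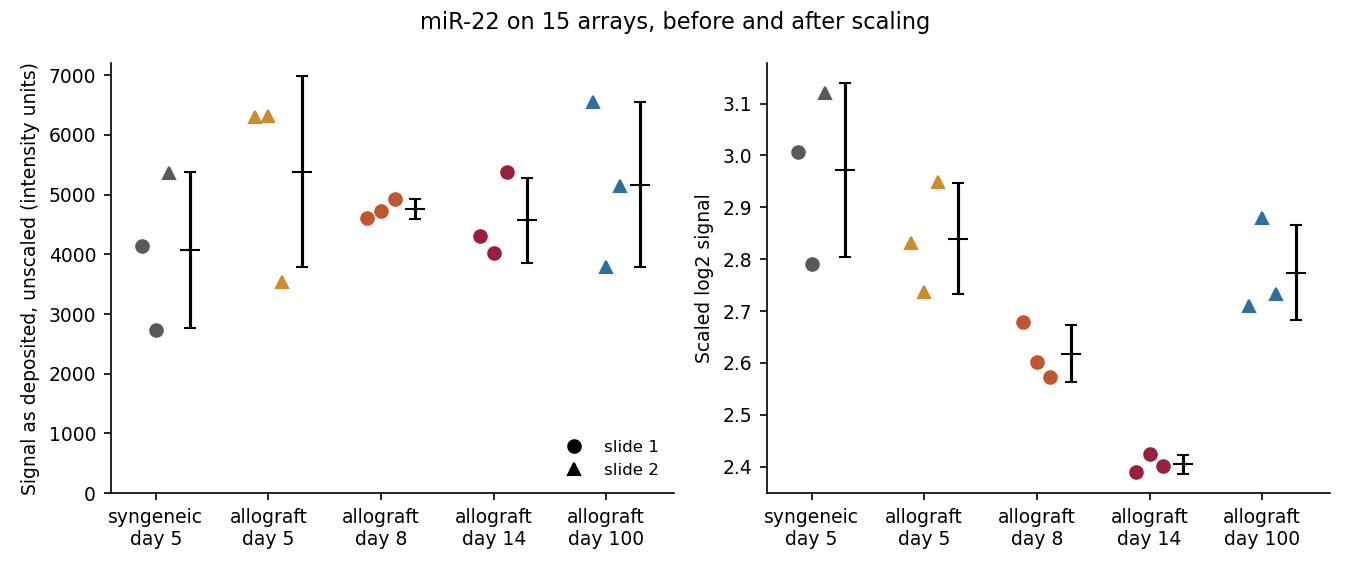
miR-22 on each array by group, as the unscaled signal in intensity units and as the scaled log2 signal, with circles for slide 1, triangles for slide 2 and bars for the group mean ± SD (n = 3). The groups overlap in unscaled signal, and in scaled log2 signal the day 14 arrays (2.39 to 2.42) are below all others.

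The scaled level of miR-22 was lower than in the syngeneic grafts on days 8 and 14. The test was limma, a linear model fitted to every miRNA with a shared estimate of spread, with p-values adjusted by Benjamini-Hochberg over the 103 miRNAs tested, and a difference was called where the adjusted p was below 0.05. On day 14 it fell by 0.57 on the log2 scale (SE 0.12, 95% interval -0.84 to -0.30), a level 32.5% lower, with an adjusted p of 0.0023 from limma. This call was lost when arrays were scaled by the 75th percentile over all mouse miRNAs (-0.64, limma adjusted p 0.065). On day 8 it fell by 0.35 (SE 0.12, interval -0.62 to -0.08), a level 21.8% lower, with an adjusted p of 0.038 from limma. Of the 103 miRNAs tested, 45.6% were called on day 14 (18.4% lower) and 40.8% on day 8 (17.5% lower), and the arrays of 21.4% and 18.4% were all lower than the syngeneic arrays, so a call of this size was not unusual in these grafts. On day 14, 55 of the 103 miRNAs differed from the syngeneic grafts by more than miR-22 did, and on day 8 it was 58.

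No difference from the syngeneic grafts was called on day 5 or day 100. On day 5 the log2 difference was -0.13 (interval -0.40 to 0.14) with a limma adjusted p of 0.46, beside 25.2% of tested miRNAs called. On day 100 it was -0.20 (interval -0.47 to 0.07) with a limma adjusted p of 0.23, beside 31.1% called. These intervals leave room for a decrease of 0.40 on day 5 and of 0.47 on day 100. The 4 comparisons share the same 3 syngeneic arrays. A moderated F test over the 5 groups gave F = 6.11 with a limma adjusted p of 0.014, and 64.1% of the tested miRNAs passed it. With the 75th percentile over all mouse miRNAs it did not pass (F = 2.30, limma adjusted p 0.16).

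The slide moved with these groups, since days 8 and 14 were hybridised on slide 1 only. With the slide as a block, the day 14 difference was -0.49 (limma adjusted p 0.0069) and the day 8 difference was -0.28 (0.078), which ended the day 8 call. Within slide 1 alone, which leaves 2 syngeneic arrays, day 14 was at -0.49 (limma adjusted p 0.015) and day 8 at -0.28 (0.10). Within slide 2 alone, which leaves 1 syngeneic array, day 5 was at -0.28 and day 100 at -0.35. The limma adjusted p of 0.28 and 0.22 take the spread from the allografts and assume that the lone syngeneic array varies like them, so they do not show whether a difference was there. In bulk tissue, fewer cells that carry a miRNA and less of it per cell cannot be told apart.

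The direction of these differences depended on the scaling. Without scaling, miR-22 was higher than in the syngeneic grafts by 0.41, 0.27, 0.21 and 0.36 (log2) on days 5, 8, 14 and 100, and none of these passed the test (limma adjusted p of 0.40, 0.48, 0.67 and 0.46). The 52 miRNAs detected on every array were higher by more in the same unscaled values, with median differences of 0.52, 0.68, 0.61 and 0.72. Relative to that median, miR-22 was therefore at -0.11, -0.41, -0.40 and -0.36 on the 4 days, a difference that no constant per array can change. Of the 52 miRNAs, 21, 12, 16 and 17 had a lower log2 difference than miR-22 on these days, so by this measure day 100 was close to days 8 and 14. The decrease called on days 8 and 14 is thus one relative to the other miRNAs of the same array, and the absolute amount of miR-22 was not measured.

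Quantile normalization, which gives each array the same set of values, turned the sign on days 8 and 14, to 0.95 (limma adjusted p 0.0037) and 0.63 (0.023), and left 0.00 on days 5 and 100. Under it a miRNA takes the common value of its rank, and miR-22 was the third brightest on all day 8 arrays and on day 14 replicates 1 and 3 and the fourth brightest on every other array. That rank turned on miR-720 alone, a feature looked up after the values were seen, whose scaled level fell by 4.01 on day 8 (limma adjusted p 0.0011) and by 3.15 on day 14 (0.0041) relative to the syngeneic grafts. The plot of the 8 settings shows the day 14 difference below 0 in all but the unscaled and the quantile-normalized values.

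**Figure D3:**
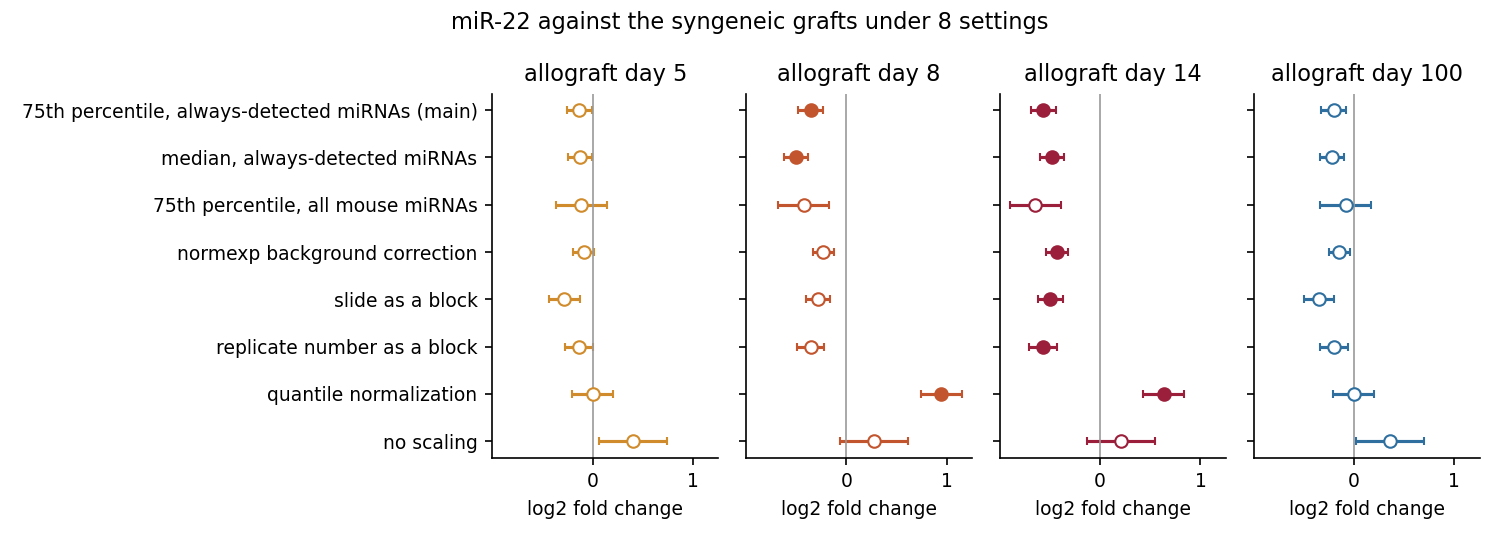
Log2 difference of miR-22 from the syngeneic grafts ± SE on allograft days 5, 8, 14 and 100 under 8 settings, with filled points for a limma adjusted p below 0.05. Day 14 lies between -0.64 and -0.48 under the scalings by percentile or median and at 0.21 without scaling and 0.63 after quantile normalization.

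By group mean, the scaled level of miR-22 was highest in the syngeneic grafts and then ran downwards through day 5, day 100 and day 8 to day 14. Neighbours in this order did not differ past the threshold. The syngeneic grafts and day 5 overlapped, and day 5 and day 100 overlapped as well, with a log2 difference of 0.07 (interval -0.20 to 0.33, limma adjusted p 0.74, where 29.1% of tested miRNAs were called). The 3 arrays of day 8 lay below those of day 100, at -0.16 (interval -0.43 to 0.11, limma adjusted p 0.38), and those of day 14 lay below those of day 8, at -0.21 (interval -0.48 to 0.06, limma adjusted p 0.41). For these last pairs the arrays did not overlap. The arrays were likewise all lower for 18.4% of the tested miRNAs between days 8 and 100 and for 27.2% between days 14 and 8, while limma called 19.4% and 5.83% of them.

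Day 14 was lower than day 5 and day 100 in the scaled values. The difference from day 5 was -0.43 (SE 0.12, limma adjusted p 0.035), where 12.6% of tested miRNAs were called, and that from day 100 was -0.37 (SE 0.12, limma adjusted p 0.026), where 51.5% were called. Day 14 and these 2 groups lay on different slides and were linked only through the syngeneic arrays. With the slide as a block the differences were -0.21 (limma adjusted p 0.50) and -0.15 (0.62), so neither call held. The 3 arrays of day 14 were below those of day 5, as they were for 22.3% of tested miRNAs, and below those of day 100, as they were for 25.2%. Day 8 was below day 5 by 0.22 without passing the test (limma adjusted p 0.27, interval -0.49 to 0.05), where 1.94% of the tested miRNAs were called and the arrays of 21.4%, miR-22 among them, were all lower on day 8.

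After scaling, the spread of miR-22 among grafts of a group was small for these arrays. Its residual SD was 0.10 on the log2 scale, against a median of 0.31 over the 103 tested miRNAs, 3 of which had a smaller one. Among the 20 brightest miRNAs the median was 0.23, and 1 had a smaller residual SD. The day 14 grafts spread least (SD 0.02) and the syngeneic grafts most (SD 0.17).

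The opposite strand, miR-22*, was at or near background. It was detected on 4 of 15 arrays (syngeneic replicate 3, day 5 replicates 1 and 2, and day 14 replicate 3), and on no group's 3 arrays together, so it was not tested. Its signal ranged from -19.8 units on day 100 replicate 1, the array with the high additive error, to 28.0 units, with a median of 18.9. On the other 14 arrays this was 0.340% to 0.459% of the miR-22 signal of the same array. The share compares different probes and is no measure of strand choice.

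Set against other miRNAs on the same array, miR-22 stood higher on day 14 against both hepatocyte miRNAs and lower against both broadly expressed ones. These differences need no scaling between arrays. Each was tested by an exact two-sided permutation test over 3 arrays against 3, which cannot give a p below 0.1, so none of the 16 could pass. The references with a RefSeq entry are shown for identification, with the seed in capitals; none shares the seed of miR-22.
miR-192 (mmu-miR-192-5p): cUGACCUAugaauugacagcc
miR-21 (mmu-miR-21a-5p): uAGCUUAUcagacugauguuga
miR-26a (mmu-miR-26a-5p): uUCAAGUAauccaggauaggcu
miR-192 lies on chromosome 19, miR-21 on chromosome 11 like miR-22, and miR-26a comes from hairpins on chromosomes 9 and 10.

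miR-122 is specific to hepatocytes. The log2 signal of miR-22 minus that of miR-122 was -1.65, -1.93 and -1.76 in the syngeneic grafts and -1.06, -1.39 and -1.46 on day 14. All 3 arrays of day 14 were higher, by 0.48 on average or 1.39-fold (exact permutation p = 0.1, adjusted over 16 tests 0.27). On day 5 the mean difference from the syngeneic grafts was 0.30 (exact p = 0.2), on day 8 it was 0.06 (exact p = 0.7) and on day 100 it was 0.16 (exact p = 0.3), and the arrays overlapped on these days.

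miR-192 is enriched in liver, gut and kidney. Against it, miR-22 was at 1.40, 0.99 and 1.18 in the syngeneic grafts and at 1.73, 1.40 and 1.62 on day 14. The day 14 mean was 0.40 higher (exact permutation p = 0.1), although the lowest array of day 14 barely cleared the highest syngeneic one. The differences on the other days were 0.08, 0.12 and 0.24 on days 5, 8 and 100 (exact p of 0.6, 0.4 and 0.2).

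Against miR-21, miR-22 was lower on all 3 arrays of day 5 and of day 14. It stood at -1.30, -1.98 and -2.11 in the syngeneic grafts, -2.46, -2.25 and -2.50 on day 5 and -2.46, -2.56 and -2.15 on day 14. The mean differences were -0.61 and -0.59 (exact permutation p = 0.1 each). Syngeneic replicate 1 carried much of both, and without it they were -0.36 and -0.34. On day 8 the mean difference was -0.33 (exact p = 0.5). On day 100 miR-22 stood at -1.27, -1.08 and -1.38, and the mean difference was 0.55 (exact p = 0.2), the only day on which the mean was above that of the syngeneic grafts.

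miR-26a is expressed in most tissues. Against it, miR-22 was at 3.66, 3.88 and 3.62 in the syngeneic grafts, at 3.34, 3.30 and 3.36 on day 8 and at 3.31, 3.40 and 3.35 on day 14. Days 8 and 14 were lower on all 3 arrays, with mean differences of -0.39 and -0.37 (exact permutation p = 0.1 each). On day 5 the mean difference was 0.10 (exact p = 0.7) and on day 100 it was -0.24 (exact p = 0.3), with overlapping arrays. With the 2 syngeneic arrays of slide 1 only, the day 14 differences were 0.49 over miR-122, 0.39 over miR-192, -0.75 over miR-21 and -0.41 over miR-26a.

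**Figure D4:**
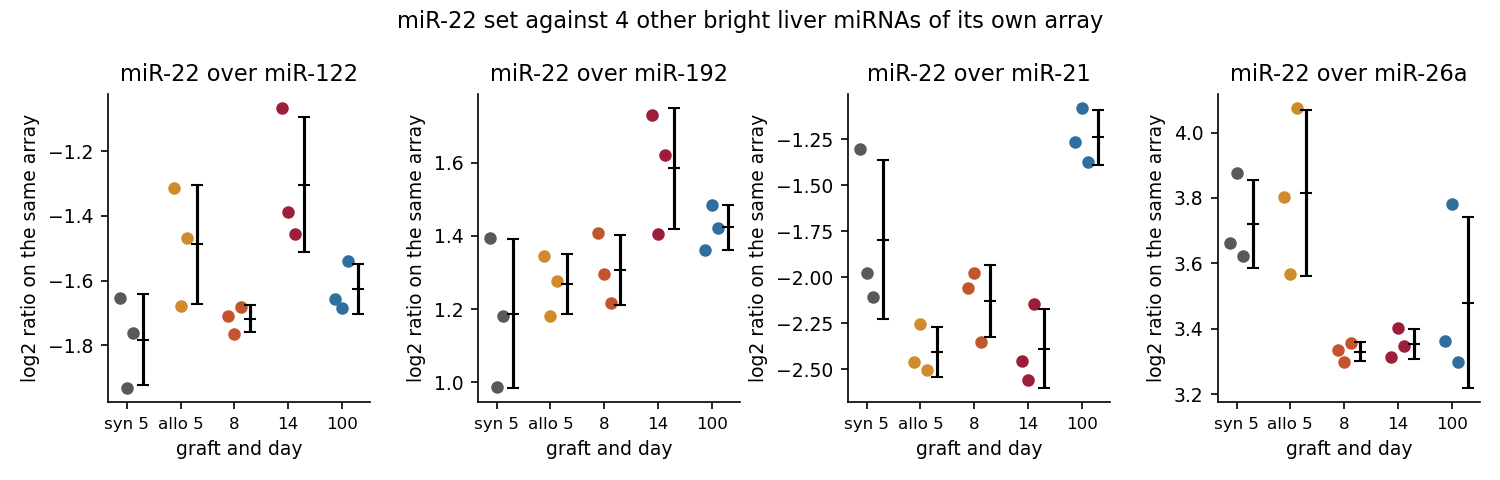
Log2 signal of miR-22 minus that of miR-122, miR-192, miR-21 and miR-26a on the same array, by group, with bars for the mean ± SD (n = 3). On day 14 the 3 arrays lie above the syngeneic arrays against miR-122 and miR-192 and below them against miR-21 and miR-26a.

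The miRNAs whose scaled pattern was most like that of miR-22 over the 15 arrays were miR-192, miR-148a, miR-122, miR-101b and miR-194. Their Pearson correlations with miR-22 were 0.89, 0.89, 0.86, 0.80 and 0.79, against a median of -0.06 over the 102 other tested miRNAs. The arrays share their scaling factors and their groups, and within groups, after the group means were removed, the same correlations were 0.29, 0.36, 0.39, 0.12 and 0.18. Without scaling they were 0.87, 0.78, 0.82, 0.30 and 0.85 beside a median of 0.53. The likeness thus lay mainly in the group means. These sequences are shown because they had the pattern of miR-22 with other seeds (capitals).
miR-148a (mmu-miR-148a-3p): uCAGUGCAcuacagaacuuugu
miR-101b (mmu-miR-101b-3p): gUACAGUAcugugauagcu
miR-194 (mmu-miR-194-5p): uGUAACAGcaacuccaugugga
They lie on chromosomes 6 and 19 and, for miR-194, on chromosomes 1 and 19.

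By point estimate, all 5 were lower on day 14, relative to the syngeneic grafts, by more than miR-22. The log2 differences were -0.97 for miR-192, -1.19 for miR-148a, -1.05 for miR-122 and -0.99 for miR-194, each with a limma adjusted p of 7.9e-05, and -2.00 for miR-101b with 4.4e-06. miR-22 was at -0.57 in the same comparison. The 5, like miR-342-3p, miR-652 and miR-350 below, were picked by their correlation with miR-22 over these same arrays. Their direction on day 14 therefore follows in part from the choice, and the p-values are no separate support. Without scaling, miR-22 was at 0.21 and the 5 were at -0.19 for miR-192, -0.41 for miR-148a, -0.27 for miR-122, -0.22 for miR-194 and -1.22 for miR-101b, and with quantile normalization miR-122 turned to 0.38. At the other end, miR-342-3p, miR-652 and miR-350 had correlations of -0.83, -0.76 and -0.73 with miR-22. miR-342-3p, which is abundant in lymphocytes, rose by 4.04 on day 14 (limma adjusted p 4.2e-09) and miR-652 by 1.93, but both values rest in part on the floor, where miR-342-3p lay on 2 and miR-652 on 1 of the 3 syngeneic arrays. miR-350 was not well above background on any syngeneic array, and on day 14 it was at least 1.27-fold higher than the dimmest detected signal there (limma adjusted p 0.030, from means of -4.47 and -5.21 as scaled log2). Its correlation with miR-22 is likewise set partly by the floor.

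**Figure D5:**
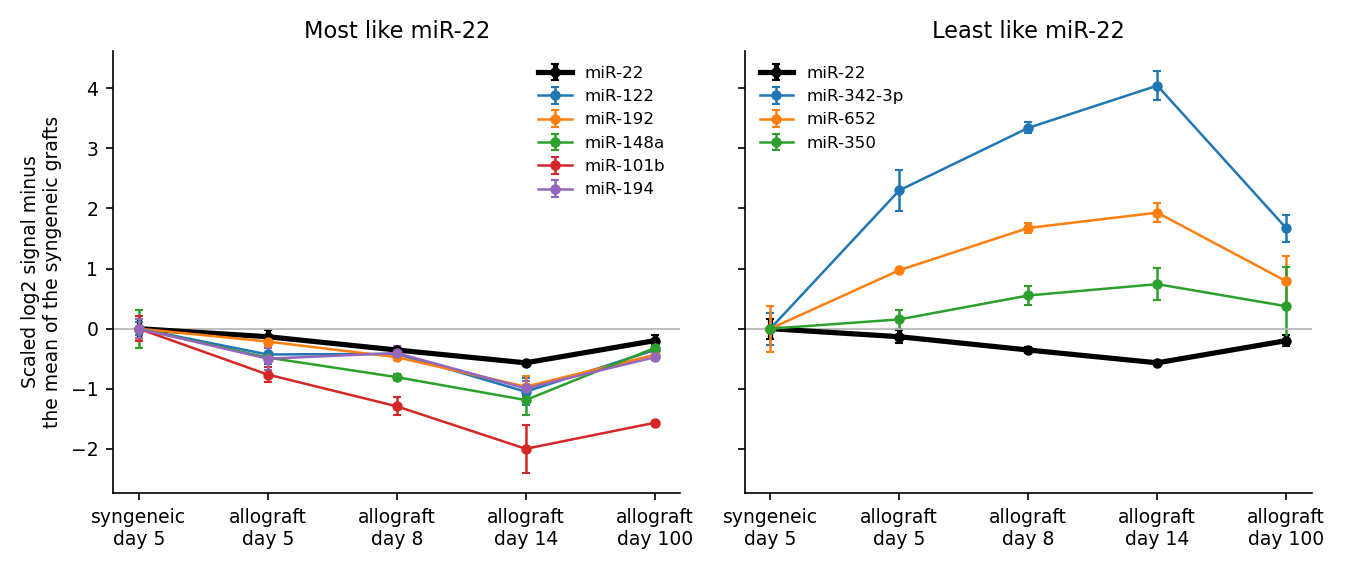
Scaled log2 signal minus the syngeneic mean, as group mean ± SD (n = 3), of miR-22 with the 5 miRNAs most like it over the 15 arrays and with the 3 least like it. On day 14 miR-22 is at -0.57, the most like between -2.00 and -0.97 and the least like between 0.74 and 4.04, values that the floor of the scale holds down because these 3 were at it on 1 to 3 syngeneic arrays.

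Lists of markers stood for the cell types that a liver graft can hold. In the scaled values, the called hepatocyte markers were lower, as miR-22 was, and the called leukocyte markers were higher. Of the 5 hepatocyte miRNAs, 4 were tested, namely miR-122, miR-192, miR-194 and miR-148a. All 4 are among the miRNAs most like miR-22 described above, so their values are not a separate observation. Those called were all lower. They numbered 3 on day 5, 4 on days 8 and 14, and 2 on day 100. The median log2 differences were -0.45, -0.45, -1.02 and -0.39 against 0.12, 0.14, 0.07 and 0.00 over all tested miRNAs. Without scaling the list's medians were 0.08, 0.18, -0.25 and 0.16, so its direction too turned with the scaling except on day 14. The calls on days 5, 8 and 100 also depended on it: with the 75th percentile over all miRNAs, 0, 1 and 0 members were called lower, and with quantile normalization 2, 2 and 0 were called lower and miR-122 was called higher on day 100. On day 14 these scalings called 4 and 3 members lower. Without scaling, limma called 0 on every day, and 0 at an unadjusted p below 0.05. Called lower among all tested miRNAs were 6.80%, 17.5%, 18.4% and 14.6% on these days. The miRNAs not called were miR-192 on day 5 (-0.21), and miR-122 (-0.36) and miR-148a (-0.32) on day 100. The summed scaled signal of the list ran from 30.1 to 35.8 in the syngeneic grafts and from 13.4 to 17.2 on day 14, and the remaining member, miR-802, was detected on no array of the syngeneic grafts and days 8, 14 and 100. On day 14, the day with the lowest sums, miR-22 was also at its lowest.

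Of the 7 leukocyte miRNAs, 6 were tested, and those called were all higher. They numbered 6 on days 5 and 14, 4 on day 8 and 3 on day 100. Called higher among all tested miRNAs were 18.4%, 23.3%, 27.2% and 16.5% on days 5, 8, 14 and 100. The methods' t-test after adjustment called 1, 4, 4 and 0 members of the list on these days. With the 75th percentile over all miRNAs or quantile normalization, limma called 2 on day 100. Only 3 members were detected on all 3 syngeneic arrays, against 6 on each of days 5, 8 and 14. The other tested members passed the filter only through allografts, so the direction of the list is partly set by the filter. miR-223, a myeloid miRNA, and miR-142-3p, found across blood lineages, were detected on all 3 syngeneic arrays. miR-223 was at 1.86, 1.99, 2.38 and 0.80 on days 5, 8, 14 and 100. miR-142-3p was at 1.98 on day 5 and 1.33 on day 14. It was not called on day 8 (0.65, limma adjusted p 0.28) or day 100 (0.15, limma adjusted p 0.84). The summed scaled signal of the list was 0.779 to 1.85 in the syngeneic grafts. Among allografts the sum ran from 3.23 to 8.38 (day 5), 2.46 to 2.87 (day 8), 3.29 to 4.48 (day 14) and 1.31 to 1.69 (day 100). The list's median differences stayed above 0 under every scaling tried. miR-150 of this list was detected on no array, and miR-155 on none of the syngeneic arrays. The part of the cell composition in the miR-22 level was not tested.

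Of 3 erythroid miRNAs 2 were tested. miR-451 was called higher on days 5, 8 and 14, at 0.99, 1.21 and 1.55 (limma adjusted p of 0.049, 0.013 and 0.0023). Among all tested miRNAs, 18.4%, 23.3% and 27.2% were called higher on these days. With the 75th percentile over all miRNAs, the miR-451 calls on days 5 and 8 were lost (limma adjusted p of 0.14 and 0.061). miR-144 was not well above background on any day 8 array, and its day 8 mean was 2.97-fold lower (limma adjusted p 0.018). Among all tested miRNAs, 17.5% were called lower on that day. After adjustment, the methods' t-test called 0 members of this list on any day. The summed scaled signal was 0.624 to 1.24 in the syngeneic grafts and 1.84 to 2.49 on day 14, and miR-486 was not detected on any array outside day 14. Of 6 endothelial and stromal miRNAs, 5 were on the array and 2 were tested, miR-126-3p and miR-214. In the main scaling, limma made 0 calls on any day. At an unadjusted p below 0.05, limma passed 1 of the 2 on day 8 and on day 100, and the methods' t-test after adjustment passed 1 on day 8. With median scaling, limma called 1 of the 2 higher on days 14 and 100, and without scaling 1 on days 8 and 14. The log2 differences in the main scaling were 0.24 to 0.32 for miR-126-3p and 0.05 to 0.58 for miR-214. The latter lay at the floor on 2 syngeneic, 2 day 5, 1 day 14 and 1 day 100 arrays, so its values are set largely by the floor. The 4 striated muscle miRNAs, a tissue rich in miR-22, were detected on no array. Their summed scaled signal sat at 0.108 on nearly every array, the level of the floor.

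All 8 broadly expressed miRNAs were tested. On day 5, 1 of them rose, and on day 8, 2 rose. On day 14, 2 rose and 2 fell, and on day 100, 1 rose and 1 fell. Among all tested miRNAs, 18.4%, 23.3%, 27.2% and 16.5% were called higher on days 5, 8, 14 and 100. Called lower were 6.80%, 17.5%, 18.4% and 14.6%. The members called were miR-16 (0.51, 0.84 and 0.89 on days 5, 8 and 14), miR-24 (0.45 and 0.53 on days 8 and 14), let-7f and miR-30c (-0.60 and -0.48 on day 14), let-7a (0.64 on day 100) and miR-21 (-0.75 on day 100). Without scaling the decreases of let-7f and miR-30c turned to 0.18 and 0.29, and that of miR-21 was -0.19. With the 75th percentile over all miRNAs, limma called 0, 0, 1 and 0 members higher on the 4 days and 0 lower. With quantile normalization it called 0, 2, 3 and 3 higher and 1, 0, 2 and 0 lower. The methods' t-test after adjustment called 0, 1, 1 and 0. miR-21 itself was at 0.02 on day 14 and miR-26a at -0.20 (limma adjusted p of 0.94 and 0.33). Messenger RNA was not measured on these arrays, so no target of miR-22 can be read from them.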

How the data were processed

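The authors deposited the scanner output of 15 arrays, with each spot's intensity as Agilent Feature Extraction (9.5.1.1, per the file headers) had subtracted background and detrended it, on the linear scale and not normalized between arrays. A series table of processed values was not used. For each miRNA, the mean intensity over the spots of a probe, without control and outlier spots, was summed over probes. A miRNA was detected where 0.5 or more of the spots of any probe were well above background. The scale factor of an array was the 75th percentile of its signals for the 52 miRNAs that every array detected. Scaled values below 0.0270 (-5.21 as log2) were set to that floor before the log2 transformation.

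Tests covered the 103 mouse miRNAs for which some group had the miRNA detected in all 3 grafts. A mean per group was fitted in limma 3.58.1 (R 4.3.3), with Benjamini-Hochberg adjustment over the 103 within each comparison and a threshold of 0.05. The fits were checked on simulated data. Differences within an array were tested by exact permutation. Python 3.11.15, numpy 2.4.6, pandas 2.3.3 and scipy 1.17.1 were used.

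Replicates are 3 mice per group, and that number limits the precision. No 2 arrays held identical values (0 pairs). Alternatives covered scaling, probe summary, background, filter, blocks, test and left-out arrays, and each slide alone was added after seeing the data. miR-22, the references and the lists were chosen with earlier results of these data known. Named were miR-22 and miR-22*, 4 references, the 5 miRNAs most and the 3 least correlated with miR-22, and the 2 brightest tested members of each list (hepatocyte, leukocyte, erythroid, endothelial and stromal, striated muscle, broadly expressed). A further list is not reported here. Further list members named for their calls, and miR-720, were picked after their values were seen. Current names and sequences came from RefSeq tables (GRCm38.p6).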

Additional observations from a re-analysis of the deposited data

How the results depend on the processing

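Over all miR-22 comparisons, 472 alternative values were computed, of which 406 kept direction and side of the threshold, 47 lost the call, 3 gained one and 16 changed sign. That total pools differences not called in the main fit and the 16 within-array tests. The p of the latter cannot fall below 0.1, so they could not cross the threshold. Among the called differences, day 14 against the syngeneic grafts kept direction and call in 29 of 32 alternatives and day 8 in 16 of 32. Day 14 kept them in 9 of 31 against day 5 and in 21 of 31 against day 100. Values are log2 differences, with the limma adjusted p where a call turned. The decrease on day 14 against the syngeneic grafts lost its call with the 75th percentile over all miRNAs (-0.64, adjusted p 0.065) and changed sign with quantile normalization (0.63) and without scaling (0.21). It ranged from -0.66 to -0.49 as each array was left out, with an adjusted p of 0.0093 or less.

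The decrease on day 8 lost its call with the 75th percentile over all miRNAs (-0.42), with probe A_54_P1309 alone (-0.29), with normexp (-0.23), with the slide as a block (-0.28) or slide 1 alone (-0.28), and at -0.35 with only the compared groups fitted, with the replicate block (adjusted p 0.056) and with the methods' t-test after adjustment. It changed sign with quantile normalization (0.95) and without scaling (0.27). Leaving out arrays gave -0.45 to -0.28, and the call ended without syngeneic replicate 1 or 3, any day 8 array or day 5 replicate 1 (adjusted p up to 0.11). Without scaling, days 5 and 100 against the syngeneic grafts were at 0.41 and 0.36.

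Day 14 against day 5 lost its call at -0.53 (75th percentile over all miRNAs), -0.36 (median scaling), -0.20 (no scaling), -0.34 (normexp), -0.21 (slide block) and -0.43 (probe A_54_P1310 alone, no filter, only the compared groups, replicate block, adjusted methods' t-test), and was at 0.63 after quantile normalization. Leaving out arrays gave -0.49 to -0.38, and the call ended without any 1 array of days 5, 8 or 14 or without day 100 replicate 2 or 3. Day 14 against day 100 lost its call at -0.56, -0.26, -0.15, -0.28 and -0.15 with the 75th percentile over all miRNAs, median scaling, no scaling, normexp and the slide block, and was at 0.63 after quantile normalization. Leaving out arrays gave -0.40 to -0.32, and the call ended without any 1 day 14 array or day 100 replicate 2.

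Day 14 against day 8 was at 0.018 with median scaling and passed the methods' t-test at -0.21 with and without adjustment. Day 8 against day 5 was at 0.95 after quantile normalization and passed the methods' t-test unadjusted (-0.22). Day 5 against day 100 was at -0.029 with the 75th percentile over all miRNAs. Day 8 against day 100 was at 0.95 after quantile normalization and 0.07 with the slide block. The F test lost its call with the 75th percentile over all miRNAs (F = 2.30) and without scaling (F = 0.447). Within arrays, leaving out 1 array gave -0.011 to 0.13 against miR-122 on day 8, -0.020 to 0.18 against miR-192 on day 5 and -0.034 to 0.22 against miR-26a on day 5.

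The replicate numbers did not pair the arrays: deviations of same-numbered arrays correlated from -0.65 to 0.45 (median -0.05), with 9 of 30 pairs above 0.1. The replicate block changed no other call. The cause of these changes was not tested, apart from quantile normalization, which by construction returns the value of a rank. With 3 arrays a group, an adjusted p close to the threshold moves with any setting. miR-22 itself was far above background, which follows from its choice by brightness.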
